A study of Mus musculus with 4 samples.

Results

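TEC is the label that the GENCODE annotation gives to a locus that still awaits experimental proof: a stretch of genome with evidence of a polyadenylated transcript, such as expressed sequence tags, but without proof that it is a gene in its own right. The peaks described here are all distinct peaks of m6A in mouse natural killer (NK) cells whose assigned gene carries that label in the GRCm38 annotation of GENCODE, mouse release M21. There were 380 such peaks, on 360 genes, among 20727 distinct peaks on 12351 genes. The 360 genes were 11.2% of the 3219 TEC genes of the annotation. Peaks were chosen by the label of their gene alone, and no enrichment value was used.

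The peaks come from methylated RNA immunoprecipitation sequencing of splenic NK cells from wild-type C57BL/6 mice. Before the cells were taken, NK cell numbers had been raised in the animals with an IL-15 expression plasmid, so every library stems from IL-15-expanded cells. There were 4 libraries: 2 m6A immunoprecipitates, in which an antibody had captured the fragments of poly(A) RNA that carry the mark, and 2 input libraries of RNA that had not been captured. The deposited list gave 1 fold enrichment of immunoprecipitate over input and 1 peak-calling p-value per peak, for all libraries together. The spread between replicates and the depth of each library are therefore unknown, no test was run, and the intervals given below are 95% Wilson intervals that cover counting error only. All 13 NK cell markers looked up, among them Ncr1, Klrb1c and Prf1, had at least 1 peak, as had 4 of 6 B cell, 4 of 7 T cell, 6 of 6 myeloid and 3 of 4 erythroid markers. Peaks lay on 10174 protein-coding genes in all, so a peak on a marker does not single out a cell type. A peak is not a measure of expression, and in bulk RNA fewer cells of a type and less RNA per cell cannot be told apart.

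N6-methyladenosine is the commonest internal mark of messenger RNA. It is placed by the METTL3 and METTL14 complex while the transcript is being made, and it usually sits in the consensus DRACH (D for any base but C, R for a purine, H for any base but G), with GGACT as a favoured form. TEC loci are mostly single, unspliced blocks, and many of them lie inside introns of coding genes. Such a block can be a gene of its own, a retained piece of a host intron, or an undescribed end of a neighbouring messenger RNA. Complementary DNA made with an oligo(dT) primer can also start on a stretch of adenines encoded in the genome, so the letters just past the annotated end of a TEC transcript are of interest.

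These letters are shown first. The windows below are GRCm38 sequence from RefSeq, read 5′ to 3′ on the strand of the gene. The last 10 nt of the annotated transcript are in lower case, and the 20 genomic nt that follow its 3′ end are in capitals. They belong to the 11 TEC genes that held the 8 highest fold enrichments or the 8 lowest p-values, so that the strongest loci can be read side by side.
Gm42772 (chr5:49408772-49408801, minus strand): actcattctgAAAGAAAAAAAAAAACAAAA
Gm38021 (chr1:86895123-86895152, plus strand): tgttttaagtAAAAAACAAACAAAAAAAAC
Gm48353 (chr10:62858104-62858133, minus strand): acaaacaaacAAAAAAAACAAAACCAAGAG
D630023O14Rik (chr1:164578544-164578573, plus strand): attctattctGAAGAGGAAGAAAAAAAAAA
D130019J16Rik (chr1:137937337-137937366, plus strand): atatagtaacACAAAAACAAAAATATCCAT
Gm44645 (chr7:73423893-73423922, plus strand): acaggatttgAAAAAATTAAAGTTACAAGT
Gm44799 (chr8:9658228-9658257, minus strand): aaatgatagcAAAAATGAATACTAACCACT
Gm37045 (chr1:138960421-138960450, minus strand): aaatattatcAAAAACCCATGTGACGAAAC
Gm37144 (chr1:4778043-4778072, minus strand): atacttttcgAAAGAACACACATGGTGCTG
1700097M23Rik (chr6:81893798-81893827, minus strand): ttggttcaccAAGCTGGACTTTGGTTATAT
Gm43184 (chr5:43948100-43948129, minus strand): gggaaccgggCGGGTCCCTTCTTTTCTCAG
The 20 nt past the end held 18 adenines at Gm42772, 17 at Gm38021, 15 at Gm48353 and at D630023O14Rik, 13 at D130019J16Rik and 12 at Gm44645. They held 11 at Gm44799, 10 at Gm37045, 8 at Gm37144, 5 at 1700097M23Rik and 1 at Gm43184. Inside the peaks, the longest run of adenines on the strand of the gene was 38 nt at Gm38021 and D630023O14Rik. It was 36 nt at Gm44645 and 1700097M23Rik, 35 at D130019J16Rik, 32 at Gm37144 and 29 at Gm48353. At Gm42772 and Gm37045 it was 27 nt, at Gm44799 18 and at Gm43184 5. Among TEC peaks outside these 11 genes, runs could be long or short, for example 48 nt at Gm43652 and 6 nt at Gm37541. No share over all TEC peaks is given here, so the 11 are not shown to be unusual. Such runs were not counted for other gene classes, and their bearing on the peaks was not tested.

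A second set shows the favoured m6A letters. GGACT was present in the peaks of 8 of these 11 genes and absent from those of 1700097M23Rik, Gm43184 and Gm42772. For 4 of the 8, a window of 25 nt is given around the GGACT nearest to the middle of the peak, with GGACT in capitals.
Gm38021 (chr1:86894416-86894440, plus strand): caagaggctcGGACTtgaataataa
Gm48353 (chr10:62859325-62859349, minus strand): tcaaaatgatGGACTgcaatggtgt
D630023O14Rik (chr1:164577020-164577044, plus strand): atagccacttGGACTggggtgagac
D130019J16Rik (chr1:137935702-137935726, plus strand): cagggaaataGGACTataatcatgg
GGACT is 1 of the forms that DRACH allows, and it was searched on the strand of the gene. The peak held 1 such match at Gm38021, 2 at Gm48353, 2 at D630023O14Rik and 4 at D130019J16Rik, and the other 4 peaks with a match held 1 to 3. At least 1 GGACT lay in the exonic bases of 61.8% of TEC peaks and of 29.3% of all peaks, but TEC peaks were far longer, and per kb of exonic bases the TEC peaks held 0.768 matches against 1.01 in all peaks. A match of letters is not a measured methylation site.

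TEC peaks had high fold enrichments. The median was 19, the middle 50% lay between 11.4 and 47.4, and the lowest and highest values were 1.19 and 726, while the median of all peaks was 2.66. A fold enrichment of at least 5, the size called strong here, was reached by 345 of the 380 peaks (90.8%, interval 87.5 to 93.3) against 34.6% of all peaks. The share was 70.6% for peaks of lincRNA genes, 57.9% for antisense genes, 81.9% for processed pseudogenes and 29.5% for protein-coding genes. Among TEC peaks, 93 were at or above 50-fold and 44 at or above 100-fold. The list holds no value for transcripts without a peak, so these shares describe called peaks only.

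**Figure D1:**
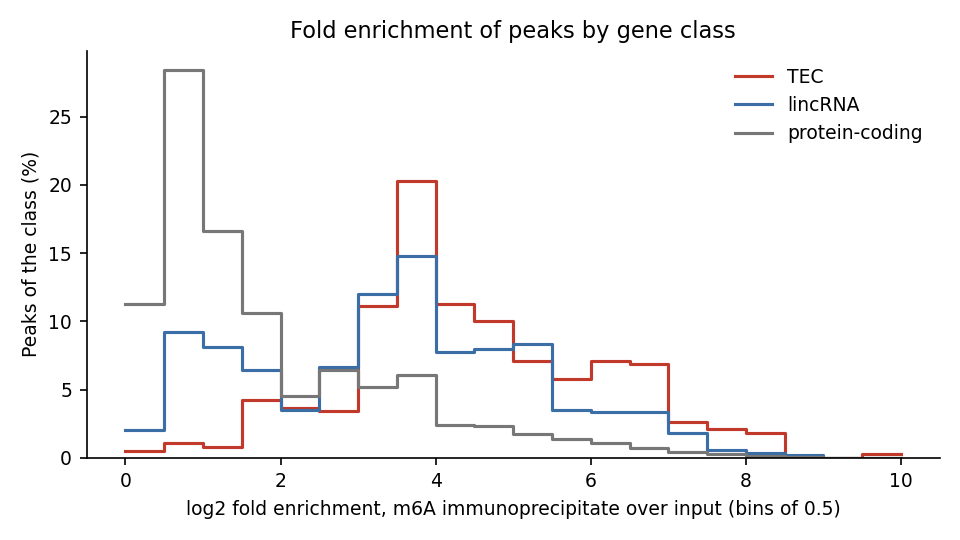
Distribution of log2 fold enrichment in bins of 0.5, as the percentage of peaks of each gene class, for TEC, lincRNA and protein-coding genes. The TEC curve rises at a log2 fold of 3 and has its highest bin between 3.5 and 4, whereas the curve of protein-coding genes is highest below 1.

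The p-values did not set TEC peaks apart in the same way. A peak-calling p-value under 0.001 was found for 232 TEC peaks (61.1%, interval 56.1 to 65.8) against 61.5% of all peaks, so the share was near the background. The median log10 p was -4.18 for TEC peaks and -4.1 for all peaks. Of the 345 strong TEC peaks, 219 were also under 0.001 and 126 were not, and 13 peaks were under 0.001 without being strong. Both criteria together were met by 57.6% of TEC peaks and 19% of all peaks. The p-values are those of the peak caller without adjustment.

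Fold and p-value were closely tied. Across the 380 peaks, Spearman's rank correlation between fold enrichment and −log10 p was 0.861, given as a description, since both values of a peak come from the same reads. The commonest pair of values was a fold of 9.48 with a log10 p of -1.69, which 37 TEC peaks (9.74%) shared, against 4.08% of all peaks. The next pairs were 11.4 with -2.09 in 33 peaks, 13.3 with -2.5 in 20, and 15.2 with -2.91 in 14. In all, 245 TEC peaks (64.5%) had exactly the same fold and p-value as another TEC peak. The folds of the 8 commonest pairs were the multiples 5 to 12 of a step of 1.896, within the rounding of the list. Between folds of 9 and 40, 201 of 216 TEC peaks (93.1%, interval 88.9 to 95.7) lay on a multiple of that step, against 88.3% of all peaks in that range. The tolerance was 0.005 below a fold of 10 and 0.05 from there on, and the latter takes up 5.27% of the distance between multiples. The step was taken from these same values. The 15 TEC peaks off the ladder all had a p under 0.001, as had all 493 off it among all peaks in that range. How many reads lay behind each rung is not given.

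**Figure D2:**
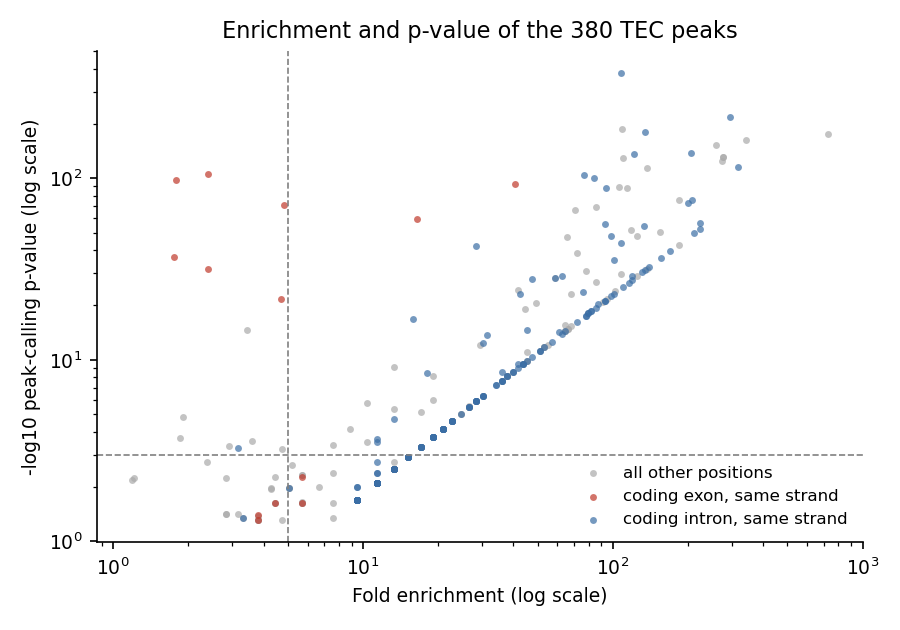
Fold enrichment (x axis, log scale) against −log10 of the peak-calling p-value (y axis, log scale) for the 380 TEC peaks, with peaks in same-strand introns, on same-strand exons and at all other positions in separate colours, and dashed lines at a fold of 5 and a p of 0.001. Many points lie on 1 narrow lower edge, and the peaks on coding exons at the upper left combine folds under 5 with very low p-values.

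The typical TEC peak was the whole locus. In 255 of 380 peaks (67.1%) the peak covered at least 90% of the exonic length of its gene, which held for 9.84% of all peaks, 42.7% of lincRNA peaks, 69% of processed pseudogene peaks and 4.28% of protein-coding peaks. In 234 peaks (61.6%) the limits of the peak were exactly the annotated start and end of the gene. The median width was 1827 nt against 300 nt for all peaks. Nearly all these genes had a single exon (376 of 380 peaks). The whole-locus peaks were also the stronger ones. Their median fold was 27.5 and all 234 were strong, whereas the 146 peaks with other limits had a median of 11.4, and 111 of them were strong. Of all 380 peaks, 30 held bases outside the exons of their TEC gene, 29 of them with other limits, and their median fold was 5.46. Such bases lay past the gene or in an intron of it. The reported span of a peak can include introns, and 13 peaks were wider than 10 kb.

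Each peak was then placed against the exons and introns of protein-coding genes, in 8 classes. A peak inside an intron of a coding gene on the same strand was the commonest case, with 179 of 380 peaks (47.1%, interval 42.1 to 52.1). A further 104 (27.4%) lay away from coding genes, 15 (3.95%) lay within 5 kb past the 3′ end of a coding gene on the same strand, 8 within 5 kb before a 5′ end, and 14 (3.68%) shared bases with a same-strand coding exon. On the opposite strand, 20 were in introns, 8 touched exons and 32 lay within 5 kb of the gene. The same-strand introns also hold many TEC genes without a peak: 51.4% of the TEC genes with a peak and 45.1% of those without lay there. The strand of a peak is that of its assigned gene, and whether the libraries kept strand is not given in the sources used here, so reads of a TEC locus and of an overlapping gene on either strand cannot be told apart.

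**Figure D3:**
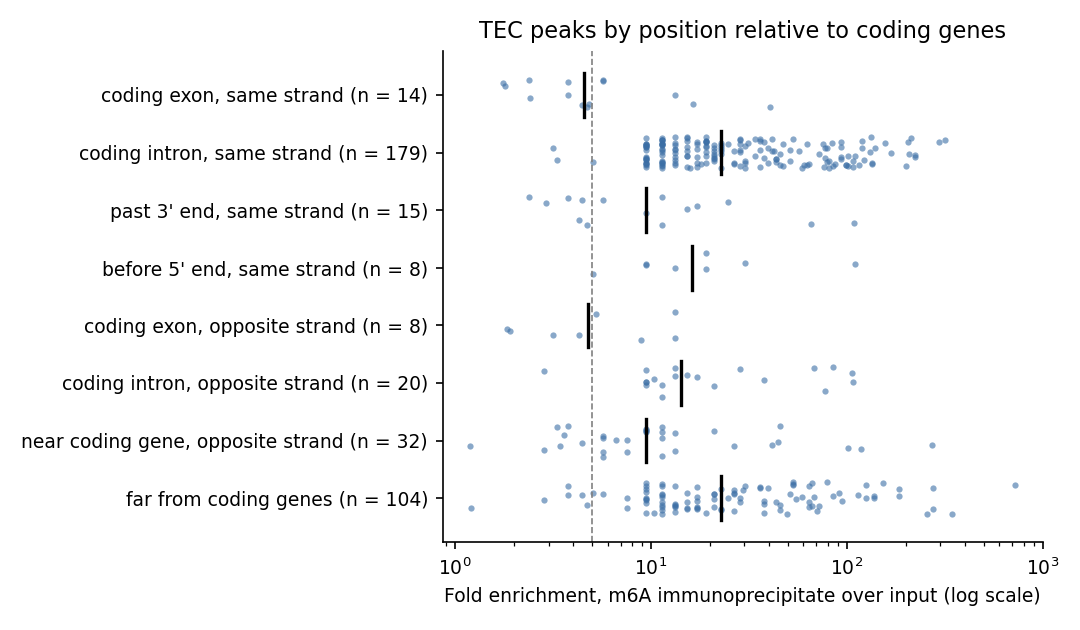
Fold enrichment (log scale) of each of the 380 TEC peaks by position relative to protein-coding genes, with a black bar at the median of each class and a dashed line at a fold of 5. Peaks in same-strand introns and far from coding genes both have a median of 22.8, and peaks that touch coding exons have medians of 4.56 on the same strand and 4.74 on the opposite strand.

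The intronic peaks were strong almost throughout. Their median fold was 22.8 (range 3.16 to 317), 177 of 179 were strong and 123 had a p under 0.001. They lay in 142 host genes and, in 177 cases, within a single intron, which was the first intron in 59. These introns were long, with a median of 51493 nt, and 64 were longer than 100 kb. The median distance from peak to nearest host exon was 9256 nt, with 87 peaks more than 10 kb and 23 less than 1 kb away. None of the 179 overlapped an exon of a protein-coding transcript of the host, by the rule of the class. For 174 of them RefSeq placed no coding exon there either.

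The intronic peak with the lowest p-value was Gm38021, at chr1:86893573-86895132 in intron 10 of 21 of Dis3l2, which encodes a 3′-to-5′ exoribonuclease that degrades uridylated RNAs. Its fold was 108 and its log10 p -379, the lowest of all TEC peaks. A second TEC peak in this host, Gm37541, had a fold of 92.9, while the best of the host's own 2 peaks had a fold of 2.04. Gm44799, in intron 1 of Fam155a, which encodes an auxiliary subunit of a sodium leak channel, had a fold of 296 and a log10 p of -218, and the host itself had no peak. Gm48353, in intron 3 of 12 of Tet1, which encodes a 5-methylcytosine dioxygenase, had the highest intronic fold, 317, against 17.1 for the best peak of Tet1. Gm37144, in intron 3 of Mrpl15, which encodes a protein of the mitochondrial ribosome, had a fold of 135 and a log10 p of -179. Its peak covered 71.8% of the TEC gene and lay less than 1 kb from a host exon. Gm42772, in the first intron of Kcnip4, 1014880 nt long, had a fold of 205 and a log10 p of -137.

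Some hosts held several, and those named here were picked because they held 3 or more. Over all same-strand introns, 185 of 1474 annotated TEC genes (12.6%) had a peak. Other hosts with many TEC genes had few peaks on them, such as Cntnap2 with 2 of 22 and Adgrb3 with 2 of 19. Dlg2, which encodes a synaptic scaffold protein, had TEC peaks on 6 of the 19 TEC genes in its introns, at folds from 9.48 to 98.6. Kcnip4, which encodes a partner of voltage-gated potassium channels, had 5 of 24, at folds from 17.1 to 224 and each with a p under 0.001. Auts2 had 4 of 22, at folds from 15.2 to 43.6. Apbb2, whose product binds the amyloid precursor protein, had 4 of 7, at folds from 9.48 to 15.2, and none of these had a p under 0.001. The synaptic adhesion gene Lrrtm4 had 3 of 8, and the protocadherin gene Pcdh7, with no peak of its own, had 3 of 13, at folds from 11.4 to 87.2. Altogether 24 hosts held at least 2 TEC peaks. Several of these hosts are best known from neurons and have very long introns, and whether NK cells expressed them was not measured here.

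The host's own peaks did not mirror those of the TEC loci. Of the 179 intronic TEC peaks, 125 lay in a host that had a peak of its own and 54 in a host that had none. Their median folds were 20.9 and 26.6, and 86 of 125 and 37 of 54 had a p under 0.001. Where the host had a peak, the TEC peak exceeded the host's best fold in 77 of 125. Of the 179 peaks, 30 overlapped a row of another gene. In some cases that was a long row of the host that spanned the TEC peak, as at Auts2 (fold 75.9) and Dpp10 (fold 91). There the comparison sets a locus against a row that contains it. Counted over genes, 131 of 998 intronic TEC genes whose host had a peak were themselves listed with a peak (13.1%, interval 11.2 to 15.4), as were 54 of 476 whose host had none (11.3%, interval 8.8 to 14.5). The intervals overlap widely.

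**Figure D4:**
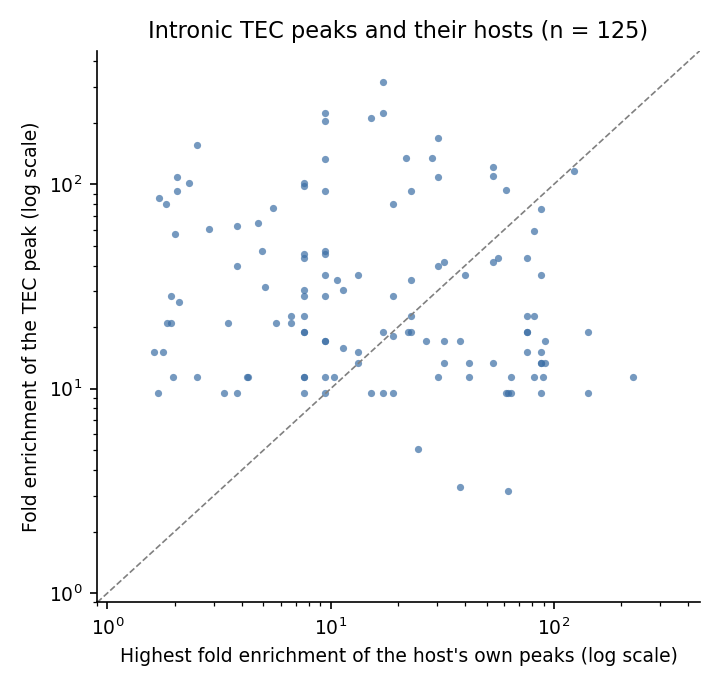
Fold enrichment of each same-strand intronic TEC peak (y axis, log scale) against the highest fold enrichment of its host's own peaks (x axis, log scale), for the 125 peaks whose host has a peak. The dashed line marks equal folds, 77 points lie above it, and 48 lie on or below it. Some host rows span the TEC peak itself.

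The hosts of the intronic peaks are given by chromosome. Chromosome 1 had 41, at folds from 3.16 to 212, among them Gm37363 in Xkr4, Gm37144 in Mrpl15, Gm37629 in Sntg1, Gm36949 in Kcnq5, Gm38260 and Gm37077 in Adgrb3, Gm38157 in Dst, Gm37626 in Gulp1, Gm37393 in Slc39a10, Gm37633 in Hecw2, Gm37531 in Fam117b, Gm38012 in Pard3b, Gm37570 in Kansl1l and Gm37061 in Erbb4. Further along that chromosome lay Gm37886 in Ap1s3, Gm37645 in Dock10, Gm38374 in Trip12, Gm37541 and Gm38021 in Dis3l2, 4833421G17Rik in Dgkd, Gm38312 in Sh3bp4, Gm37566 in Relch, Gm37219 in Epb41l5, Gm37781 and Gm38263 in Dpp10, Gm38248 in Zranb3 and Gm37064 in Thsd7b. Toward its end, chromosome 1 gave Gm37333 in Nav1, Gm37470 and Gm43544 in Dennd1b, Gm37777 in Kcnt2, 9430034N14Rik in Tor1aip1, Gm37788 and Gm37060 in Rasal2, Gm37861 in Astn1, Gm37873 and Gm38329 in Rabgap1l, Gm37767 in Dnm3, Gm36933 in Itpkb and 2700078F05Rik in Enah. Chromosome 2 had 3, namely Gm37975 in Pfkfb3, Gm38299 in Garnl3 and Gm38377 in Cers6. Chromosome 3 had 12: Gm37965 in Egfem1, Gm38047 in Sclt1, Gm37465 and C130089K02Rik in Maml3, Gm42899 in Lhfp, Gm42974 in Ank2, Gm43210 in Col25a1, Gm42449 in Lef1, Gm42822 in Ppp3ca, Gm43162 in Rap1gds1, Gm42946 in Negr1 and Gm43314 in Cth. Chromosome 5 had the most, 44, at folds from 9.48 to 224. In order of position, it began with Gm42598 in Zfp804b, Gm42455 in Grm3, Gm42909 in Sema3d, Gm42676 in Sema3a, Gm43519 in Sema3e, Gm42447 and Gm42448 in Pclo, Gm21846 in Lhfpl3, C79130 in Lmbr1, Gm42798 in Ppm1g, Gm42981 in Ldb2 and Gm43201 in Lcorl. Next came Gm43321, Gm10048, Gm42769, Gm43048 and Gm42772 in Kcnip4, Gm43715, Gm42639 and Gm37720 in Pcdh7, Gm43775 in Rbm47, Gm43792, Gm43794, Gm43343 and C530043K16Rik in Apbb2 and Gm42735 in Atp8a1. Then followed Gm43422 and Gm43423 in Tgfbr3, Gm42853 and 4933430H06Rik in Srrm4, Gm42656 in Rph3a, Gm43571 and Gm42866 in Atxn2, Gm42830 in Gpn3, Gm43541 in Ift81, Gm42908 in Mlxip, Gm42651 in Clip1, Gm43340 in Mphosph9, Gm42790 in Phkg1, Gm42897 in Galnt17, and Gm42991, Gm42992, Gm42989 and Gm43019 in Auts2.

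Chromosome 6 had 17 intronic peaks: Gm26736 in Ppp1r9a, Gm43533 in St7, Gm43876 and Gm43873 in Cntnap2, Gm37736 in Tcf7l1, Gm44235 in Ctnna2, Gm44228, Gm44241 and Gm44229 in Lrrtm4, Gm43588 in Alms1, Gm44090 in Add2, Gm44292 in Mxd1, Gm44093 in Aak1, Gm44001 in Mgll, Gm43633 in Parp11, Gm43984 in Etv6 and Gm44022 in Tmtc1. Chromosome 7 had 21, among them Gm44863 and Gm44587 in Usp29, Gm44668 in Mef2a, Gm44835 and Gm44694 in Akap13, Gm44607 in Ntrk3, Gm44967 in Zfp592, Gm44916 in Efl1, Gm44848 and Gm44847 in Grm5, A930002H02Rik, Gm45183, Gm44676, Gm44677, Gm45130 and Gm45129 in Dlg2, Gm44975 in Uvrag, Gm37716 in C2cd3, Gm44664 in Prkcb and Gm45501 in Eef1akmt2. Chromosome 8 had 6, namely Gm44799 in Fam155a, E330037G11Rik in Dcun1d2, Gm45555 in Kat6a, Gm45343 in Nsd3, Gm45266 in Rab11fip1 and Gm45762 in Cnot1. Chromosome 9 had 10: Gm48478 in Zfp809, 5033425B01Rik in Tmem45b, Gm48114 in Gramd1b, Gm37137 in Tcf12, Gm37581 in Zfp280d, Gm47723 in Bmp5, Gm37941 in Snap91, Gm38297 in Stag1, Gm37314 in Ppp2r3a and Gm42432 in Map4. Chromosome 10 had 8: Gm48334 in Ncoa7, C030006N10Rik in Nkain2, Gm47911 in Clvs2, Gm47016 and Gm47022 in Grik2, Gm48353 in Tet1, Gm47477 in Syt1 and A130012E19Rik in Zfc3h1. Chromosome 12 had 8: Gm48369 in Bzw2, Gm48181 and Gm48182 in Nrcam, Gm48655 in Ralgapa1, Gm48231 in Gphn, 5330409N07Rik in Kcnk10, Gm47208 in Efcab11 and Gm37019 in Itpk1. Chromosome 13 had 6: Gm48890 in Dip2c, Gm48766 in Fars2, Gm48569 in Nedd9, Gm47585 in 2010111I01Rik, Gm47588 in Fancc and Gm48566 in Adgrv1. Chromosome 14 had 3, namely Gm48438 and Gm48430 in Fhit and Gm48600 in Ptprg.

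TEC loci beside genes of NK cell biology were looked up with gene lists. The lists held 54 NK receptor and effector genes, 60 cytokine receptor and signalling genes, 45 lymphoid transcription factors and 21 m6A machinery genes. A list of 4 regulatory RNA genes could give no case, because only coding genes counted as hosts or neighbours. Together, 21 listed genes stood beside 33 annotated TEC genes. The share of all coding genes that stand beside a TEC locus was not compared. Of the 33 TEC genes, 1 had a peak. It was Gm42449 in intron 3 of 11 of Lef1, a transcription factor of the TCF/LEF family that acts in lymphocyte development. Its fold was 9.48 and its log10 p -1.69, the commonest pair of the list, and Lef1 had 2 peaks of its own with a best fold of 3.32. With all coding genes as hosts or neighbours, 262 of 2226 TEC genes had a peak. The number of TEC loci beside the listed genes is too small for a comparison.

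Few peaks met the rule used here for a possible undescribed 3′ extension. It asked for the whole peak to lie within 5 kb past a same-strand coding gene. Longer peaks such as Gm42548, 2914 nt from Zfp800 on the same strand, were left out. Intronic peaks at a host exon were left out too. Gm43314 lay 0 nt from an exon of Cth and Gm42866 lay 2 nt from one of Atxn2. The 15 peaks within 5 kb past a coding gene on the same strand had a median fold of 9.48 (range 2.37 to 109), 9 of them were strong and 6 had a p under 0.001. For 9 of the 15 the coding gene had no peak of its own. The strongest was Gm44645, which began 2351 nt past Rgma, the gene of a repulsive guidance molecule, with a fold of 109 and a log10 p of -187. Gm42636, 2536 nt past the zinc finger gene Zscan25, had a fold of 65.7, and 4921527H02Rik, 1231 nt past 1700006A11Rik, had a fold of 24.7. The peak nearest to a coding end was Gm43668, 337 nt past Fxr1, the gene of an RNA-binding protein related to FMRP, with a fold of 9.48. Gm45629 lay 725 nt past Saal1 and Gm47050 lay 757 nt past the chemokine receptor gene Ccr8, with folds of 11.4 and 15.2. The others were Gm37660 past Tcf12, Gm37072 past Zbtb37, Gm45769 past Smim10l1, Gm48701 past Gm49359, A430103D13Rik with 2 peaks past Zbtb25, Gm49338 past Rnf214, Gm10252 past Gys1 and Gm44250 past Pon3, at distances from 952 to 3844 nt and folds from 2.37 to 17.1. No peak of the 15 lay wholly within 1 kb of the end.

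The RefSeq models of the same build gave further cases. Of 380 peaks, 344 overlapped no RefSeq exon on the same strand, 24 overlapped an exon of a coding transcript and 12 that of a noncoding transcript. Among the 24, most of the overlap was 3′ UTR in 12 peaks, coding sequence in 9 and 5′ UTR in 3. Gm37570 in Kansl1l, Gm38248 in Zranb3 and C79130 in Lmbr1 lay wholly in the 3′ UTR of a predicted transcript of their host. Gm37064 overlapped that of Thsd7b over 1240 of its 2231 nt, with a fold of 83.8 and a log10 p of -99.9. Both peaks of Gm42547 lay in a predicted 3′ UTR of Zfp800, at folds of 2.84 and 13.3. Gm44250 lay wholly in a 3′ UTR of Pon3, a paraoxonase gene, at 2.9-fold, Gm49338 in one of Rnf214, at 3.79-fold, and Gm44064 in that of a predicted coding transcript under its own name, at 13.3-fold. Parts of the peaks of Gm45769, Gm22574 and Gm44243 fell on the 3′ UTRs of Smim10l1, Cox7c and Gabarapl1. The 5′ UTR cases were Gm38297 at Stag1, a cohesin subunit gene, Gm43461 at Pan3, a deadenylase subunit gene, and Gm43172 at Septin11, called Sept11 in the GENCODE release.

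The 14 peaks that shared bases with a same-strand coding exon had lower folds than the intronic peaks. Their median fold was 4.56, 5 were strong and 8 had a p under 0.001, and in each case the coding gene had a peak of its own. In 13 of them the reported span held bases outside the exons of the TEC gene. The clearest example was Gm22574, a locus of 60 nt at chr13:86044989-86045048, whose peak of 1206 nt shared 388 nt with exons of Cox7c, the gene of a cytochrome c oxidase subunit. That peak had a fold of 2.4 and a log10 p of -105, close to the 2-fold peak of Cox7c itself. Gm37939, in the gene of the endocytic protein Hip1r, had 2 peaks at folds of 1.79 and 1.76. Both overlapped the Hip1r peak with the best fold, 1.83. RefSeq placed no exon on the same strand there, and on the opposite strand both peaks overlapped a 3′ UTR of Vps37b. Gm36949 had the highest fold of the class, 40.7, in a span of 42258 nt that shared 313 nt with exons of the potassium channel gene Kcnq5. Gm43084 at Adgrl3 had a fold of 16.4 and Gm45428 at Rpgrip1l had 13.3. Others, at Mrps18c, Gabarapl1, Smim10l1, Rhbdd1, Dennd1b, Prcp and Kcnk10, had folds from 2.39 to 5.69. In these 14 peaks the values of the TEC gene and of the coding gene cannot be told apart.

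The region named in the deposited list was an exon for 363 of the 380 peaks, a 3′ UTR for 12 and a 5′ UTR for 5. For 16 peaks the transcript in that label belonged to another gene than the one the peak was assigned to, for example Rhbdd1 for Gm19552, Stag2 for Gm37564 and Fam169b for 4930405G09Rik. Without these peaks and those with bases outside the exons of their gene, the median fold was again 19.

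Upstream of coding genes lay 8 peaks, all strong, with a median fold of 16.1. Gm38384 stood out, 2003 nt before the start of Ctcf, which encodes the zinc finger protein that organises chromatin loops, with a fold of 110 and a log10 p of -129. A long peak of Ctcf itself, from chr8:105624336-105637245, spanned this locus with a fold of 5.69, and another with 20.9. Gm43845, 1085 nt before the germ cell gene Asz1, had a fold of 30.3. Gm43908, 2930 nt before the RNA-binding protein gene Caprin2, had 19, as had Gm43172 at Sept11. The other 4, at Hist2h3b, Rhoh, Pan3 and Med25, ranged from 5.06 to 13.3, and that of Rhoh, a small GTPase gene of blood cells, was Gm43004 with a fold of 9.48.

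On the opposite strand, 20 peaks lay in introns, with a median fold of 14.2. The lowest p-values belonged to Gm45633 in Galntl6 (fold 106, log10 p -89.5), Gm10729 in intron 3 of 4 of the Notch coactivator gene Maml3 (fold 85.3, log10 p -69.8) and Gm44711 in 4930590J08Rik (fold 77.8). The others were Gm37848 in Astn1, Gm43335 in Coro1c, Gm37415 in Sbno1, Gm43412 in Morn3, Gm37024 in Mecom, Gm45251 in Rnf170, Gm37181 in Unc80, Gm48206 in Tmtc2, Gm48502 in Sugct, Gm43169 in Lhfpl3, AY702102 in Tshz2, Gm48210 in Cenpo, Gm37143 in Sntg1, Gm38342 in Ube2w, Gm43292 in Eif2ak3, Gm43670 in Kcnip4 and Gm37564 in Stag2, with folds from 2.84 to 108. A further 8 peaks touched exons of the opposite strand, with a median fold of 4.74. They were Gm26524 at Sdhaf4 (1.9), E330011M16Rik at Coq10b (1.85), Gm37905 at Bag2 (3.16), Gm43412 at Morn3 (4.27), 4930405G09Rik at Fam169b (5.22), 4933431K14Rik at Ibtk (8.85), Gm43068 at the interferon-induced gene Oas2 (13.3) and Gm45528 at Adam3 (13.3). The low folds in both exon classes contrast with those in introns.

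Near coding genes of the opposite strand, within 5 kb, lay 32 peaks of 27 TEC genes, with a median fold of 9.48, and 10 of them had a p under 0.001. Gm37045 lay 710 nt from Dennd1b, which encodes an activator of Rab35, and had a fold of 273 and a log10 p of -124. 4930478M09Rik, 100 nt from the zinc finger gene Zfp512, had 118, 9330162G02Rik, 1005 nt from the ubiquitin ligase gene Ube3a, had 102, and Gm44013, 240 nt from the PRC2 cofactor gene Aebp2, had 41.7. Gm10766, beside the lipid transfer gene Stard7, had 3 peaks at folds of 4.43, 9.48 and 11.4, none with a p under 0.001. The other neighbours were Coq10b, Ppp1r15b, Taf3, Slc20a1, Fosl2, Ncapg, Sept11, Antxr2, Fezf1, Kbtbd2, Pcgf1, Cnbp, Ccdc174, U2af2, Mettl9, Sephs2, Tmem192, Fam81b, Rab2b, Slc25a1, Zfp236 and Hhex, where folds ran from 1.19 to 45.5.

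The highest fold of all TEC peaks was found away from coding genes. The 104 peaks of this class had a median fold of 22.8, 98 were strong and 68 had a p under 0.001. Their median distance to the nearest coding gene, on either strand, was 36535 nt, and 35 were over 100 kb away, while 8 lay partly within 5 kb. 1700097M23Rik, at chr6:81893818-81895339, had a fold of 726 and a log10 p of -175. D630023O14Rik, at chr1:164575455-164578553, had a fold of 343 and a log10 p of -163, and the peak matched 100% of the transcript. D130019J16Rik, at chr1:137935189-137937346, had a fold of 258 and a log10 p of -153. RefSeq predicts a noncoding transcript, Gm4258, over its whole length, and a separate row assigned to the microRNA gene Mir181b-1 spanned it with a fold of 53.1. Gm43184 had 2 nearly identical rows, of 547 and 542 nt, with the same fold of 276 and the same log10 p of -131, so they may stand for 1 enriched region. Gm5112 had 4 peaks, the most of any TEC gene, at folds of 4.74, 3.79, 5.06 and 11.4, and none had a p under 0.001.

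Chromosome 1 held 24 of the peaks away from coding genes: Gm38224, Gm37151, 4930420N18Rik, Gm37607, Gm38218, Gm38106, Gm38130, Gm35048, Gm37761, Gm37372, Gm37970, Gm38073, Gm37109, Gm37283, Gm37099, D130019J16Rik, Gm37749, Gm38284, D630023O14Rik, Gm33354, Gm37125, Gm38152, Gm37334 and 9630010A21Rik. Chromosome 3 held 12: 4632432E15Rik, Gm37398, Gm42692, Gm38124, Gm37926, Gm37464, E330034L11Rik, Gm29560, Gm43652, Gm43379 and Gm43473, 1 of them with 2 peaks. Chromosome 5 held 12: Gm42553, Gm43184, Gm42519, Gm42535, Gm42616, Gm43175, Gm43780, Gm43769, Gm43027, Gm42141 and Gm42894. Chromosome 6 held 16: Gm44039, Gm42547, Gm42548, 4933439N06Rik, 1700097M23Rik, Gm44209, Gm28720, Gm44369, Gm44220, Gm5112, Gm44056 and Gm10388. Chromosome 7 held 10: Gm37302, A230103L15Rik, Gm44831, Gm45098, Gm45139, Gm44861, Gm45112, 4930533L02Rik and Gm45426. The remaining 30 were Gm38386, Gm37985, Gm37795, Gm45675, Gm45324, Gm45259, Gm45746, Gm37758, Gm48565, Gm47542, Gm47175, Gm36960, Gm48743, Gm48755, Gm37189, Gm48536, Gm48285, Gm47982, A530058O07Rik, Gm47881, Gm47259, Gm47558, Gm47743, Gm37820, Gm37320, Gm37296, Gm38071, Gm36963, Gm37694 and Gm37593. Among these loci, A230103L15Rik, with a fold of 68.3, overlapped a RefSeq exon of Snhg14, the long noncoding transcript that runs through the imprinted region next to Ube3a.

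Some TEC peaks overlapped peaks of other genes. The share among all peaks is not given here, so the share of TEC peaks cannot be called low or high. Of the 380 peaks, 49 (12.9%) shared bases with a row assigned to another gene, 42 of them with a row of the same strand. There were 52 such pairs of rows, 42 of them with a protein-coding gene. The TEC peak had the higher fold in 19 pairs, the other row in 30, and 3 pairs had identical values. Most of the partner rows were very long spans, such as that of Auts2, which covered the TEC peaks Gm42989, Gm42991, Gm42992 and Gm43019 with a fold of 75.9. The spans can include introns of the partner gene, so a shared base is not a shared fragment. The microRNA gene Mir125b-2 was a similar case, since its row, with a fold of 17.1, spanned Gm36963, Gm37694 and Gm38071, with folds of 11.4, 13.3 and 53.1.

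The adenine content past the 3′ end was higher for TEC genes than for lincRNA genes, and higher for TEC genes with a peak than for those without. At least 12 adenines among the 20 nt past the end were found for 198 of 360 TEC genes with a peak (55%, interval 49.8 to 60.1) and for 1066 of 2859 without (37.3%, interval 35.5 to 39.1). The share was 11.9% for lincRNA genes with a peak and 9.15% for those without. In the 20 nt before the start of the gene it was 1.67% for TEC genes with a peak and 1.47% for those without. The medians past the end were 12 adenines with a peak and 8 without. The minimum of 12 was chosen with the data in hand. These shares moved with position and with the limits of the peak.

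Within same-strand introns, the share with an adenine-rich end was 74.1% (interval 67.3 to 79.8) for TEC genes with a peak and 61.8% (interval 59.1 to 64.4) without. Away from coding genes it was 46.9% (interval 37.4 to 56.7) with a peak and 17.4% (interval 15.1 to 20.1) without. Among genes of 1500 to 3000 nt it was 54.8% (interval 47.2 to 62.1) with a peak and 44.4% (interval 41.6 to 47.2) without. These intervals meet, and the contrast was smaller than over genes of all lengths. TEC genes whose peak had exactly the limits of the gene reached 65.8% (interval 59.5 to 71.6), and those with other limits 34.9% (interval 27.2 to 43.6). By p-value the shares were closer, with 57.2% for peaks under 0.001 and 51.1% for the rest. A polyadenylation signal, AATAAA or ATTAAA in the last 50 nt on the strand of the gene, was found in 26.9% of TEC genes with a peak and in 29.1% without, against 50.4% of lincRNA genes with a peak. Whether any of these transcripts starts from priming at a genomic adenine stretch was not tested.

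**Figure D5:**
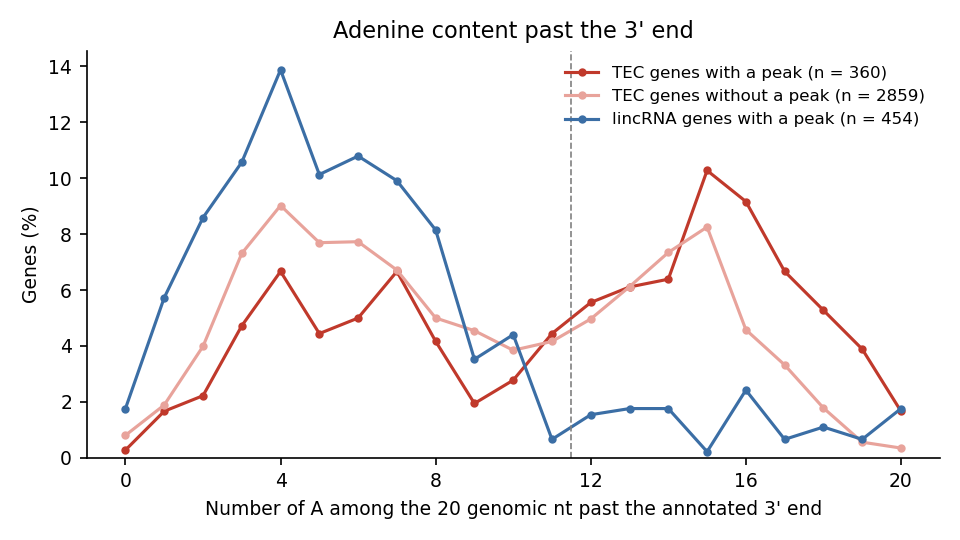
Number of adenines among the 20 genomic nt past the annotated 3′ end (x axis) as a percentage of genes (y axis), for TEC genes with a peak, TEC genes without a peak and lincRNA genes with a peak, with a dashed line below 12. The TEC curves have 2 humps and lincRNA genes 1, and the right hump, near 15 adenines, is higher for TEC genes with a peak.

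Motif density was near that of all peaks for DRACH but lower for GGAC. DRACH occurred 20.5 times per kb of exonic bases in TEC peaks and 20.1 times in all peaks, on the strand of the gene. Over whole spans the ratio of TEC peaks to all peaks was 1.02 on either strand. The core GGAC was rarer, at 2.38 per kb against 3.59 in all peaks, 3.36 in lincRNA peaks and 3.7 in protein-coding peaks. The exonic bases of TEC peaks had a lower median GC content, 40.8% against 47.3%, which was not adjusted for. No GGAC at all was found in 55 TEC peaks (14.5%), against 43.1% of all peaks, which were much shorter. The share of DRACH forms and the fold enrichment were not compared peak by peak.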

How the data were processed

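Splenic NK cells were profiled in 4 libraries, 2 m6A immunoprecipitates and 2 inputs, grouped by their titles. Per the methods of the study and the submitters' processing notes, the authors trimmed reads with cutadapt, aligned them to GRCm38 with HISAT2, called peaks with exomePeak and assigned them to genes with ChIPseeker. For further quality control the methods name Trimmomatic and the notes name fastp. The deposited table held 1 row per peak for all libraries, with 0 columns per sample, so depth and replicate spread are unknown. The fold enrichment is a ratio of immunoprecipitate over input made by the authors. The significance the authors deposited is a score, the log10 of the unadjusted peak-calling p-value. Start, end and width are positions deposited by the authors.

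Of 20751 rows, 24 exact repeats were dropped. Gene types and exons came from GENCODE mouse release M21, in which 12332 of 12351 gene identifiers were found, and 19 without an entry were left out of gene-based counts. RefSeq models and sequence were those of GRCm38.p6. Each TEC peak was put in the first class that held: same-strand coding exon (1 nt shared), wholly in introns, wholly within 5 kb past the 3′ end, or before the 5′ end, then the same for the opposite strand, and otherwise away from coding genes. Only protein-coding transcripts of protein-coding genes were used. Motifs were counted on the strand of the gene. Intervals are Wilson intervals at 95%.

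Members and gene lists were chosen with earlier results of these data known. Named by rule were the 8 peaks with the highest fold, the 8 with the lowest p, genes with 3 or more peaks, the 3 lowest p-values of each class, and peaks with a fold of at least 2 and a p under 0.001 beside a listed gene, of which there were 0. Other peaks are named as members of a class. A few members are counted in each class but not reported by name here. Position and motif counts were tested on simulated data, where 200 of 200 placed peaks and 200 of 200 motif counts were recovered. Python 3.11.15, pandas 2.3.3, pysam 0.24.0 and scipy 1.17.1 were used. Alternatives changed thresholds, strand, transcript models, overlap, distance and motif.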

Additional observations from a re-analysis of the deposited data

How the results depend on the processing

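No paired analysis was possible because all libraries share a single value per peak, and for the same reason no replicate could be left out. Of 43 alternative values for 10 results, 25 stayed within the counting interval of the value reported (or within 1.5 times the count) and 18 did not. Keeping only peaks with a p under 0.001 left 232 TEC peaks, with a median fold of 37.9, a strong share of 94.4%, 53% in same-strand introns and 74.1% that covered their gene. With the threshold for strong at 3 or 10, the share was 96.6% or 75.8%. Among peaks with a fold of at least 5, 71.9% covered their gene and 1.45% touched a same-strand coding exon. With either strand counted, 53.2% lay in introns. The share on coding exons was 0.526% when at least 50% of the bases had to be exonic and 6.32% with RefSeq coding transcripts. The share past a 3′ end was 0% within 1 kb and 8.42% within 10 kb. At least 50% of the gene was covered by 77.1% of peaks. The ratio of motif density in TEC peaks over all peaks was 0.951 for GGAC over whole spans, against 1.02 for DRACH. At least 10 or 15 adenines past the end were found for 62.2% or 36.9% of TEC genes with a peak. The RefSeq, adenine and label alternatives were chosen after seeing the data. The cause of each change, beyond the changed rule itself, was not tested.

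Depth is unknown, so a TEC gene without a peak is not shown to lack the mark.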

Other observations

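The loci were unevenly spread over the genome. Chromosome 1 held 76 of the TEC genes with a peak among its 475 annotated TEC genes (16%, interval 13 to 19.6), chromosome 5 held 73 of 501 (14.6%) and chromosome 6 held 42 of 303 (13.9%). Chromosome 15 held 2 of 78 (2.56%, interval 0.706 to 8.88) and chromosome 11 had 0 of 15. The annotated loci themselves were concentrated on a few chromosomes, and neighbouring loci often share a host intron, so the counts are not independent.

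By position, the share of annotated TEC genes with a peak ranged from 7.69% for those on same-strand coding exons (4 of 52) to 12.8% for those past a 3′ end (12 of 94), with 12.6% in same-strand introns (185 of 1474) and 9.87% away from coding genes (98 of 993). Across the 380 peaks the fold enrichment had a Spearman rank correlation of 0.0595 with the exonic length of the gene, given as a description.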
